A study of Mus musculus with 4 samples.

Results

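Bone morphogenetic protein (BMP) signalling was followed through 10 genes in intestinal stem cells (ISCs) of young and old mice: the ligand Bmp2, the receptors Bmpr1a and Bmpr2, the signal-carrying Smad1, Smad5 and Smad4, the inhibitor Smad6, and the target genes Id1, Id2 and Id3. They were taken by name from a table of 52459 genes, and all 10 were among the 13692 genes that passed the filter on low counts. The ISCs came from the small intestine of wild-type female C57/Bl6 mice aged 2 months (ISC_2mth) or 22 months (ISC_22mth). Crypt cells were sorted as CD31-, CD45-, CD24 medium, CD166+, CD44 high, GRP78 low, EPHB2 high and EPCAM+. Each age had 2 libraries, each from a pool of 5 animals, made by full-length SPIA amplification. Per the labels neither age carried a transgene or a treatment.

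BMP ligands bind a complex of a type I receptor such as BMPR1A and a type II receptor such as BMPR2. The receptors phosphorylate SMAD1 and SMAD5, which enter the nucleus with SMAD4 and switch on genes such as the ID family, while SMAD6 damps the signal from inside the cell. ID proteins bind E proteins and keep them off DNA. In the intestine, BMP ligands made by the stroma and upper epithelium act most strongly towards the villus and restrain stem cells, and antagonists such as Noggin and Gremlin from cells beneath the crypt shield the stem cell zone.

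No member passed a false discovery rate (FDR) of 0.05 between the ages in edgeR's quasi-likelihood test, against 309 of the 13692 genes tested (2.26%). Limma voom, the edgeR likelihood ratio test and DESeq2 called 0 members too. At an unadjusted p below 0.05, 3 of 10 members were found (Id3, Bmpr1a and Bmpr2, each with a higher value in old ISCs), against 16.9% of all genes. The pools of the ages did not overlap for 5 members (Bmp2, Bmpr1a, Bmpr2 and Id3 with old above young, and Smad6 with old below young), against 47.6% of all genes. Smad6 met the filter on low counts only in the young pools, the group where it was higher. The log2 fold change, old over young, was above 0 for 8 members and below 0 for 2, with a median of 0.22 against -0.0049 for all genes tested. That split depended on scaling: with total counts in place of TMM factors the median of all genes moved to -0.49, and 9 of the 10 members then had a value below 0, the exception being Id3 at 0.24. The member median also depended on single pools: it was 0.073 without ISC_2mth replicate 2 and 0.29 without ISC_22mth replicate 2.

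The libraries held 11662654 to 15975698 counted reads, of which mitochondrial genes took 62.6% and 65.7% in the young pools and 73.8% and 72.9% in the old pools, so that 3852178 to 4593004 reads per library fell on other genes. The part of the mitochondrial share in the results was not tested. Levels are given below as TMM-normalized CPM, read counts scaled to a common library size, and a count of 3, the limit that a count of 0 allows, came to 0.198 to 0.245 CPM. All 7 ISC markers were expressed and none passed the FDR, while 4 had an unadjusted p below 0.05 (Sox9, Axin2 and Rnf43 with lower values in old ISCs, Ascl2 with a higher one) and 5 of 7 had a log2 fold change below 0. Axin2 (-0.46, edgeR FDR = 0.0510) and Rnf43 (-0.41, edgeR FDR = 0.0876) were closest to it, with both old pools below both young pools. The study's own analysis of these libraries listed both genes as lower in old ISCs at an FDR below 0.05. Of the markers of other epithelial cells, 3 of 6 enterocyte markers and 2 of 5 Paneth cell markers were higher in old ISCs, as was 1 of 3 tested tuft markers (Dclk1), and none of 5 goblet or 5 tested enteroendocrine markers passed. Dclk1 met the filter only in the old pools. The summed enterocyte level was 224 and 339 CPM in the young pools and 666 and 555 CPM in the old. The summed Paneth level was 684 and 520 CPM in the young pools and 1592 and 586 CPM in the old. Summed goblet levels were 1720 and 2268 CPM in young and 2382 and 1826 CPM in old pools, and enteroendocrine levels 26.5 and 127 against 108 and 77.0 CPM. Other lists were low: 14 to 54 counts per library over 9 mesenchymal markers, with Col1a2, Col3a1 and Pdgfra at 0 throughout and Pdgfrb at 28 and 31 reads in young and 17 and 2 in old pools, 0 to 7 over 5 endothelial markers and 5 to 14 over 8 leukocyte markers. The part of these cells in the results below was not tested, and in bulk RNA fewer cells of a type and less RNA per cell cannot be told apart. The pools of an age held different animals. Whether they shared a sort or a library day was not given in the sources used here. The p-values thus rest on the spread between these pools, which the edgeR test draws towards that of genes at a like level.

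The DNA in front of the members is shown for a receptor gene, a target gene and the inhibitor gene, to set their regulatory letters beside their levels. RefSeq (GRCm38.p6) gave a promoter for 7 members, Bmpr1a, Bmpr2, Smad1, Smad5, Smad6, Id2 and Id3, and the 250 bases before each start were searched on both strands for GGCGCC, a GC-rich element bound by SMAD1 and SMAD5, for CAGAC, the short element bound by SMAD4, and for GTCTAGAC, a palindrome; none of these motifs overlaps another. Bases in an exon of the longer GENCODE models are left out below, so the Bmpr1a stretch (chr14:34502688-34502796, minus strand) and the Id2 stretch (chr12:25096254-25096342, minus strand) lie in introns of longer transcripts. The Smad6 stretch (chr9:64022060-64022309, minus strand) directly precedes the gene. Sequences run 5′ to 3′ on the gene's strand, with GGCGCC in capitals.
Bmpr1a: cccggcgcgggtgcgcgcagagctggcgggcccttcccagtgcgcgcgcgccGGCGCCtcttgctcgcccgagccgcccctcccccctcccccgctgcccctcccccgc
Id2: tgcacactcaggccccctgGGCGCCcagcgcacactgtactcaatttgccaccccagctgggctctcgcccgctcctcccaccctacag
Smad6: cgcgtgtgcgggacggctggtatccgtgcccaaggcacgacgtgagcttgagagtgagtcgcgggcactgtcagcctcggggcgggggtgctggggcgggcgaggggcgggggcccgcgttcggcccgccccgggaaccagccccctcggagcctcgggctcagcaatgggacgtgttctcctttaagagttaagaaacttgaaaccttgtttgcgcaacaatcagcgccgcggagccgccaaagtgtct
Over the whole windows, exon bases included, GGCGCC occurred in a window of 4 of these 7 genes (Bmpr1a, Bmpr2, Id2 and 1 of 3 windows of Smad5), and in 9.59% of 32851 RefSeq promoters. The Bmpr2 window lay wholly in exons of longer GENCODE models. CAGAC occurred at 2 places in the Id3 window, which also lay wholly in such exons, and at 1 place in another Smad5 window, and in 42.2% of all promoters. GTCTAGAC was in none of the 7 genes' windows and in 0.167% of all promoters. A match describes letters and is not a binding site.

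The only ligand among the members, Bmp2, was expressed at a low level. Bmp2 (ENSMUSG00000027358.6, GRCm38 chr2:133552159-133562885, plus strand) had 19 and 15 reads in the young pools and 22 and 17 in the old, or 1.31 and 0.992 against 1.66 and 1.39 CPM. Both old pools stood above both young pools. The fitted log2 fold change was 0.41 ± 0.58 (SE, n = 2 pools per age), with a 95% interval from -0.80 to 1.62 (edgeR FDR = 0.776). It was 0.22 without ISC_2mth replicate 2 and 0.62 without ISC_2mth replicate 1, the range over the pools left out, and -0.087 with total counts. Among the 1876 tested genes within 1.5-fold of its level, the smallest log2 change that passed the FDR was 2.15 in size.

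Both receptors were well expressed and had values above 0 for the age difference, without passing the FDR. Bmpr1a (ENSMUSG00000021796.15, chr14:34410734-34503341, minus strand), the main type I BMP receptor of intestinal epithelium, had 1410 and 1238 reads in young and 1547 and 1351 in old ISCs. The level was 97.1 and 81.9 CPM in young and 117 and 110 CPM in old pools, or 89.5 ± 10.8 against 114 ± 4.53 (SD, n = 2 each). Every old pool lay above every young pool, and the fold change was 1.27. On the log2 scale it was 0.34 ± 0.12 (SE), with an interval from 0.084 to 0.61 (edgeR FDR = 0.163). The range was 0.22 to 0.47 when 1 pool was left out in turn, and with total counts the value was -0.15. Over 290 bp its exons overlap the antisense gene Gm17110, which had at most 4 reads in a library, and the strand setting of the counting was not given in the sources used here.

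Bmpr2 (ENSMUSG00000067336.6, chr1:59763400-59879014, plus strand), the type II receptor dedicated to BMP ligands, had 1365 and 1517 reads in young and 1725 and 1315 in old ISCs. The level was 94.0 and 100.4 CPM in young and 130 and 108 CPM in old pools, or 97.2 ± 4.48 against 119 ± 16.1 (SD, n = 2 each). The old pools were again above the young, with ISC_22mth replicate 1 well above replicate 2. On the log2 scale the change was 0.29 ± 0.13 (SE), with an interval from 0.027 to 0.56 (edgeR FDR = 0.247). Without ISC_22mth replicate 2 it was 0.42 and passed the FDR. That fit draws the spread of the young pools towards that of genes at a like level. It assumes that the lone old pool varies like the young, and it called more genes than the main fit. Without ISC_22mth replicate 1 the change was 0.15 and did not pass. These values were the range over the pools left out. With total counts the change was -0.20. The ratio of Bmpr1a to Bmpr2 reads within a library, which a single scaling factor per library cannot move, was 1.03 and 0.816 in young and 0.897 and 1.03 in old pools, so these ranges overlapped.

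**Figure D1:**
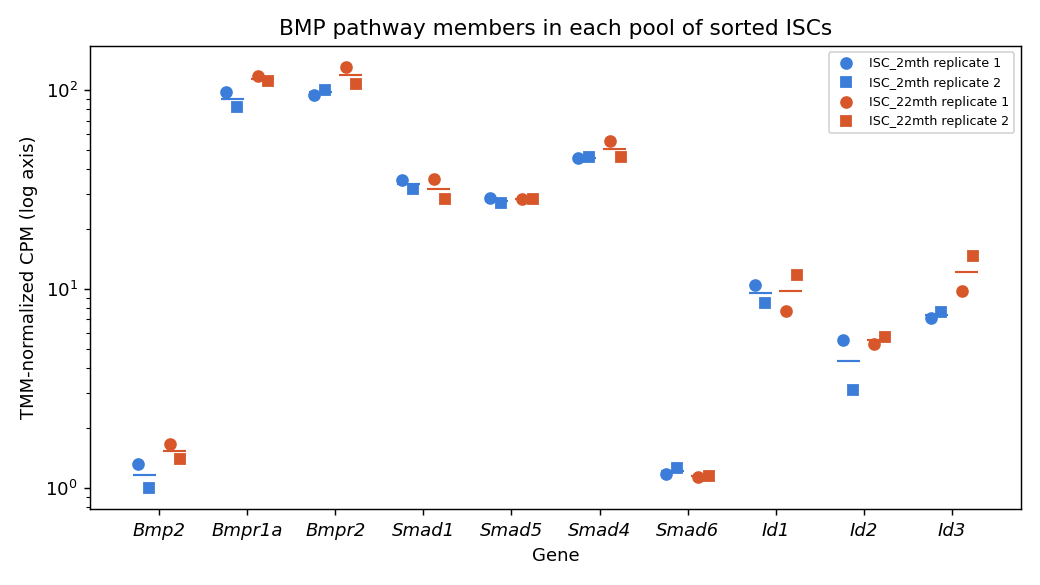
TMM-normalized CPM (log axis) of each member in each pool, with circles and squares for replicates 1 and 2, blue for ISC_2mth, orange for ISC_22mth, and short lines for the mean of the 2 pools. The receptors sit near 100 CPM and Bmp2 and Smad6 near 1 CPM. Id3 has 7.10 and 7.61 CPM in young and 9.75 and 14.6 CPM in old pools. The ages do not overlap for it, nor for 47.6% of all genes tested.

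The receptor-regulated SMADs, which the type I receptor phosphorylates, had fitted age differences near 0. Smad1 (ENSMUSG00000031681.16, chr8:79338395-79399518, minus strand) had 514 and 477 reads in young and 470 and 345 in old ISCs, or 35.4 and 31.6 against 35.5 and 28.2 CPM. The ages overlapped, with both the highest and the lowest value in old pools. Its log2 fold change was -0.07 ± 0.15 (SE), with an interval from -0.39 to 0.25 (edgeR FDR = 0.861), and it was 0.017 without ISC_2mth replicate 1 and 0.085 without ISC_22mth replicate 2. Smad5 (ENSMUSG00000021540.16, chr13:56703010-56742377, plus strand) was the steadiest member over the 4 libraries, with 414 and 408 reads in young and 375 and 347 in old ISCs, or 28.5 and 27.0 against 28.3 and 28.4 CPM. Both old pools lay within the range of the young. Its log2 fold change was 0.03 ± 0.14 (SE), with an interval from -0.27 to 0.33 (edgeR FDR = 0.941).

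Scaling decided the calls for these SMADs. With total counts Smad1 was at -0.57 (FDR = 0.0114) and Smad5 at -0.46 (FDR = 0.0350), both called lower in old ISCs, as were 4536 of the 13692 genes under that scaling. Measured from the median of all genes under that scaling, the values were -0.07 and 0.03. The ratio of Smad1 to Smad5 reads was 1.24 and 1.17 in young and 1.25 and 0.994 in old pools and overlapped.

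Smad4 (ENSMUSG00000024515.13, chr18:73639009-73703780, minus strand), the partner shared by the BMP and TGF-beta arms, had 656 and 695 reads in young and 732 and 559 in old ISCs. The level was 45.2 and 46.0 CPM in young and 55.3 and 45.7 CPM in old pools, so that 1 old pool was above and the other within the young range. Between ages the log2 fold change was 0.15 ± 0.14 (SE), with an interval from -0.14 to 0.43 (edgeR FDR = 0.623), and -0.34 with total counts. It ran from 0.0039, without ISC_22mth replicate 1, to 0.28 with 1 pool left out in turn. The ratio of Smad4 to Smad1 reads was 1.28 and 1.46 in young and 1.56 and 1.62 in old pools, a log2 difference of 0.22 without overlap. An exact two-sided permutation test of 2 against 2 pools gave p = 0.333, the smallest it can give.

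Smad6 (ENSMUSG00000036867.7, chr9:63953076-64022059, minus strand), an inhibitory SMAD that is itself a BMP target, had a level per kilobase in the range of Bmp2. It had 17 and 19 reads in young and 15 and 14 in old ISCs, or 1.17 and 1.26 against 1.13 and 1.14 CPM. The old pools were below the young by a gap smaller than the CPM value of 1 read, and the gene met the filter only in the young pools. The fitted log2 value was -0.09 ± 0.62 (SE), with an interval from -1.39 to 1.21 (edgeR FDR = 0.958). Corrected by offsets for exon length and GC content, it was 0.081. At this level the smallest log2 change that passed the FDR, over 1867 genes, was 2.52 in size.

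The 3 ID genes, small helix-loop-helix proteins without a DNA-binding domain, had different patterns over the pools, and none passed the FDR. Id3 (ENSMUSG00000007872.3, chr4:136143497-136145755, plus strand) had the largest fold change and the lowest p of the members, with 103 and 115 reads in young and 129 and 179 in old ISCs. The level was 7.10 and 7.61 CPM in young and 9.75 and 14.6 CPM in old pools, or 7.35 ± 0.363 against 12.2 ± 3.46 (SD, n = 2 each). The old pools were both higher, and they differed from each other by more than the nearer of them differed from the young. The fold change was 1.65 with an interval from 1.18 to 2.31, or 0.73 ± 0.23 (SE) on the log2 scale (edgeR FDR = 0.110). Of the 2727 tested genes within 1.5-fold of its level, 95.5% had a smaller log2 change in size, 2.09% passed the FDR, and the smallest log2 change that did was 0.74.

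Of the 4 fits that left out 1 pool, 1 called Id3. Without ISC_22mth replicate 1, the lower of the old pools, the log2 fold change was 0.99 and passed. That fit draws the spread of the young pools towards that of genes at a like level. It assumes that the lone old pool varies like the young, and it called more genes than the main fit. Without ISC_22mth replicate 2, the higher of the old pools, the value was 0.41, the lowest with 1 pool left out, and did not pass. The size of the Id3 difference thus rested in part on that pool. Id3 kept a value above 0 under all 15 alternatives, 0.24 with total counts among them. The summed enterocyte level was also higher in the old pools, at 666 CPM in ISC_22mth replicate 1 and 555 CPM in replicate 2, and its part in the Id3 values was not tested.

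Id1 (ENSMUSG00000042745.9, chr2:152736251-152737410, plus strand), the most used readout of BMP signalling, had 152 and 128 reads in young and 102 and 143 in old ISCs. The level was 10.5 and 8.47 CPM in young and 7.71 and 11.7 CPM in old pools, so that the old pools lay on either side of the young. Fitted over the 4 libraries, the log2 fold change was 0.03 ± 0.23 (SE), with an interval from -0.46 to 0.52 (edgeR FDR = 0.961). It ran from -0.30 to 0.31 with 1 pool left out and was -0.46 with total counts (FDR = 0.143).

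Id2 (ENSMUSG00000020644.9, chr12:25093799-25097140, minus strand) had 80 and 47 reads in young and 70 and 70 in old ISCs, or 5.51 and 3.11 against 5.29 and 5.72 CPM. ISC_2mth replicate 2 was low and the other 3 libraries were close together. The log2 fold change was 0.35 ± 0.31 (SE), with an interval from -0.29 to 1.00 (edgeR FDR = 0.596). Without ISC_2mth replicate 2 it was -0.0083, so the difference rested on that pool.

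Within the ID family, the ratio of reads separated the pools by age for 1 pair of 3. Id3 reads per Id1 read were 0.678 and 0.898 in young and 1.26 and 1.25 in old pools: Id1 had more reads than Id3 in both young pools and fewer in both old pools. The log2 difference was 0.69 (exact two-sided permutation test, p = 0.333, the smallest 2 against 2 pools can give). Id2 per Id1 was 0.526 and 0.367 in young and 0.686 and 0.490 in old pools and overlapped, as did Id3 per Id2 at 1.29 and 2.45 against 1.84 and 2.56. The 6 pairs were chosen after the values were seen, and after Benjamini-Hochberg adjustment over them each exact permutation p was 1.

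**Figure D2:**
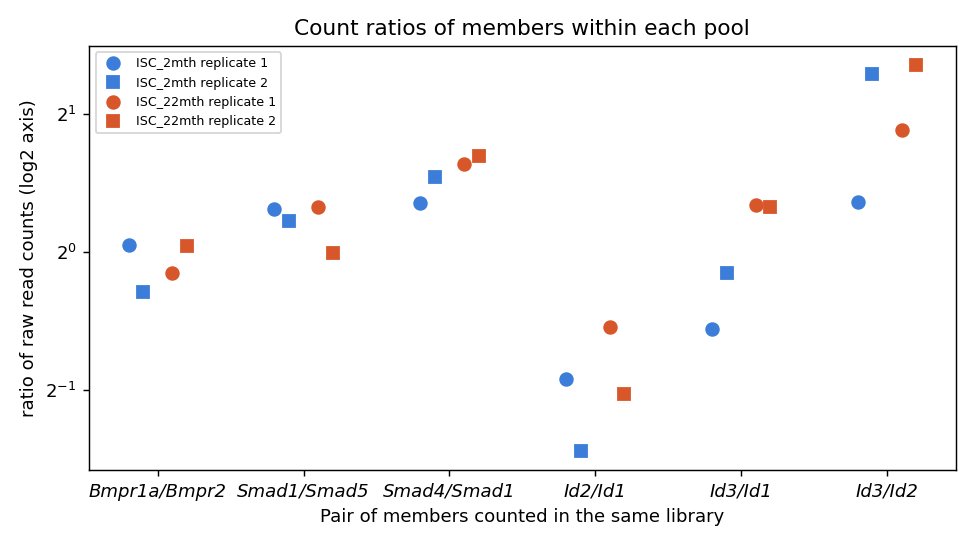
Ratio of raw read counts of 6 pairs of members in each pool (log2 axis), blue for ISC_2mth and orange for ISC_22mth, circles and squares for replicates 1 and 2. Id3/Id1 lies at 0.678 and 0.898 in young and at 1.26 and 1.25 in old pools, and Smad4/Smad1 is the other pair whose ages do not overlap.

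**Figure D3:**
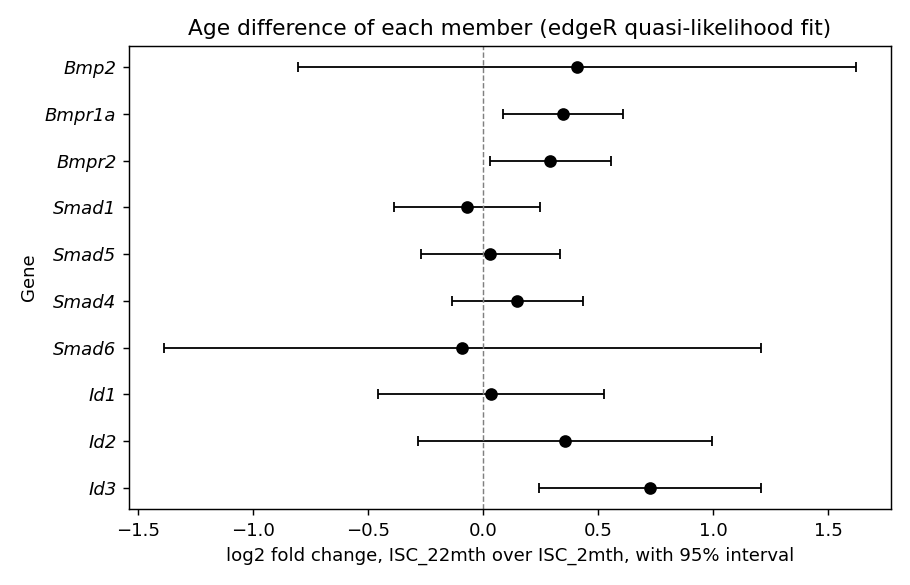
Log2 fold change, ISC_22mth over ISC_2mth, of each member (points) with its 95% interval (bars) from the edgeR quasi-likelihood fit to 2 pools per age. The intervals of Bmpr1a, Bmpr2 and Id3 lie above 0 before adjustment over 13692 genes, while those of Bmp2 and Smad6 are the widest.

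Per kilobase of exon, which lets genes be set against each other, Bmpr1a stood highest with a mean over the 4 libraries of 16.0 CPM per kb, above 94.4% of the genes tested. It was followed by Smad4 at 12.9, Id1 at 8.26, Bmpr2 at 6.01, Id3 at 5.46, Smad1 at 5.22, Smad5 at 3.78 and Id2 at 2.01 CPM per kb. Bmp2 (0.376) and Smad6 (0.367) came last, Smad6 above 10.3% of the genes. The ranges over the 4 libraries overlapped between Bmpr1a and Smad4 and between Bmp2 and Smad6. They also overlapped between Id1, Bmpr2, Id3 and Smad1 taken as neighbours in that order. Within each library, though, Bmpr1a was above Smad4, and Id1 was above Id3 and Smad1. The order of the other neighbours in those runs changed between libraries and is not settled. The ranges did not overlap between Smad4 and Id1, Smad1 and Smad5, Smad5 and Id2, or Id2 and Bmp2. Bmpr2 has as many CPM as Bmpr1a but 17983 bp of exon against 6351 bp, and so a lower level per kb.

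Genes whose pattern over the 4 libraries was most like that of Id1 were Drg2, a GTP-binding protein, Slc44a4, a transporter of choline-like compounds, and Tubgcp4, a part of the gamma-tubulin complex. Their root-mean-square distances in centred log2(CPM + 1) were 0.0225, 0.0287 and 0.0329 among 8296 genes with a mean of at least 5 CPM. Of the members with that mean level, Smad5 ranked 1942, Bmpr1a 4616, Smad1 5770, Smad4 5811, Id3 6419 and Bmpr2 6633. Smad6, Id2 and Bmp2 were below that level and were not ranked, with distances of 0.225, 0.263 and 0.272 against 0.277 for Bmpr1a. Over only 4 libraries such likeness is a description.

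The rest of the pathway was followed through 68 other genes listed by role, of which 31 passed the filter on low counts. None passed the FDR in edgeR, 4 had an unadjusted p below 0.05, 16 had a log2 fold change above 0 and 15 below, and the median was 0.029. Limma voom, the edgeR likelihood ratio test and DESeq2 also called 0 of them. For comparison, 2.26% of all genes tested passed the FDR and 16.9% had such a p. With total counts the median of the 31 genes was -0.46, beside -0.49 for all genes tested. It ran from -0.087, without ISC_22mth replicate 1, to 0.050 with 1 pool left out.

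Among 14 ligands, 4 passed the filter. Bmp3, an atypical ligand that opposes other BMPs, had 789 and 895 reads in young and 949 and 860 in old ISCs, far above Bmp2 (log2 fold change 0.32, edgeR FDR = 0.191). Bmp7 had 154 and 188 against 154 and 115 reads (-0.13), and Bmp8b had 29 and 14 against 13 and 5 (-1.05). Bmp8b met the filter only in the young pools. Bmp4, a ligand of the crypt and villus stroma, had 1 read in each young pool and 0 in each old pool. Of 17 secreted antagonists, 3 passed the filter, the broadly expressed Fstl1 (-0.0047), Twsg1 (0.18) and Crim1 (0.21). Noggin (Nog), Chordin (Chrd) and Grem1 had 0 reads in all 4 libraries, which allows up to 0.245 CPM.

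Of 13 receptors and co-receptors, 7 passed the filter. Bmpr1b, the other main BMP type I receptor, had 0 reads in every library, and Acvr1, also type I, had 99 and 157 against 98 and 119 reads (-0.01). Acvr2a, a type II receptor shared with activin, had 503 and 446 reads in young and 574 and 455 in old ISCs, with a log2 fold change of 0.33 (edgeR FDR = 0.258). Acvr2b had 106 and 111 against 74 and 75 reads (-0.32). The co-receptor Rgmb had 695 and 572 against 502 and 361 reads, a log2 fold change of -0.34 (edgeR FDR = 0.274). The receptor list thus held values on both sides of 0, with Bmpr1a, Acvr2a and Bmpr2 at its upper end.

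The other SMADs and feedback genes were low. Smad7, the general inhibitory SMAD, had 55 and 62 reads in young and 39 and 45 in old ISCs (-0.25), and Smad9, the third BMP SMAD, had 11 to 13 reads per library and was not tested. Among 12 targets, Id4 had 14 and 19 against 12 and 6 reads (-0.66), and Bambi, a decoy receptor, had 13 and 13 against 27 and 6 (0.53). Id4 met the filter only in the young pools. Atoh8, a helix-loop-helix target of BMP SMADs, had 37 and 30 reads in young and 11 and 16 in old ISCs, a log2 fold change of -1.08 (edgeR FDR = 0.301), opposite in sign to Id3. Msx1 and Msx2 had 0 reads throughout. Of the 20 regulators, Ski, a repressor bound by SMAD complexes, had the lowest p, with 570 and 555 against 377 and 400 reads (-0.31, edgeR FDR = 0.273), while the ubiquitin ligases Smurf1 and Smurf2 were at -0.08 and 0.16.

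**Figure D4:**
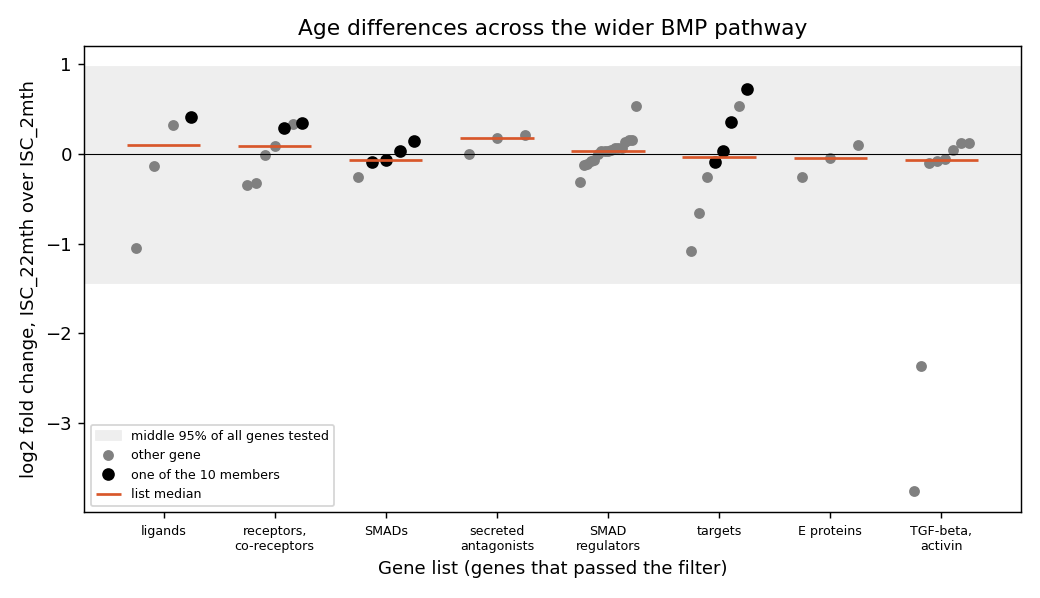
Log2 fold change, ISC_22mth over ISC_2mth, of the genes of each list that passed the filter (grey, or black for the 10 members), with the list median as an orange line and the middle 95% of all genes tested as a grey band. Some genes stand in 2 lists. The medians lie near 0, from -0.07 for SMADs to 0.18 for antagonists, and Id3 is the highest of the targets.

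The E proteins that ID proteins bind all passed the filter, with means of 5.76 (Tcf3), 5.20 (Tcf12) and 1.02 (Tcf4) CPM per kb. Tcf3 had 383 and 367 reads in young and 310 and 233 in old ISCs (log2 fold change -0.25, FDR = 0.453), Tcf4 was at -0.04 and Tcf12 at 0.10, and none passed the test, nor had an unadjusted p below 0.05. In the neighbouring TGF-beta and activin arm, which shares Smad4, 8 of 11 genes passed the filter, none passed the FDR and 1, Tgfb1, had an unadjusted p below 0.05. Its receptor-regulated SMADs, Smad2 and Smad3, were at -0.08 and -0.10, and the receptor Tgfbr1 at 0.12. The ligand Tgfb1 had 16 and 3 reads in young and 0 and 1 in old ISCs (edgeR FDR = 0.232), and Tgfb2 had 13 and 6 against 2 and 1, with 1 young pool supplying most of the reads of Tgfb1. Both ligands met the filter only in ISC_2mth replicate 1, the pool where they were highest, so their direction and p are no evidence of a change.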

How the data were processed

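The authors deposited raw read counts per gene for 4 single-end SPIA libraries. Per the study's methods and the submitters' processing notes, reads were trimmed with Trimmomatic 0.30, aligned to GRCm38 with STAR 2.4.2a and counted over GENCODE vM15 exons with featureCounts. The strand setting and the treatment of multi-mapping reads were not given in the sources used here. The filter followed the study: a gene was kept where any library gave it over 5 reads and over 1 CPM. Counts were TMM-normalized and tested with edgeR 4.0.16 (quasi-likelihood, R 4.3.3), with Benjamini-Hochberg adjustment over all 13692 genes kept. The study's own choice, limma 3.58.1 voom with sample quality weights, and DESeq2 1.42.0 were among 15 alternatives. The fit was tested on simulated data. Standard errors and intervals rest on the spread between 2 pools, which the quasi-likelihood fit draws towards that of genes at a like level. Floors cover counting error only, since the amplified reads carry no molecular identifiers.

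Between replicate pools the chi-square per gene was 9.42 and 7.11, so no pair was a repeated library. The members and gene lists were chosen with earlier results of these data known. Named genes were all members, up to 3 genes of lowest p in each other list, set counterparts (such as Bmpr1b, Smad7 and Id4), and the 3 genes nearest to Id1. Chrd, Msx1, Msx2, Smurf1 and Smurf2 were named after their values were seen. Positions and exon lengths came from GENCODE vM21 (GRCm38), matched by symbol, and promoters from RefSeq.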

Additional observations from a re-analysis of the deposited data

How the results depend on the processing

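Across 15 alternatives, 131 of 150 member values kept their direction and their side of the threshold. With 2 pools per age, the smallest log2 change called among genes at the level of the receptors was 0.47 in size, and at the level of Bmp2 2.15. The number of genes called (309) was 611 with the likelihood ratio test, 197 with DESeq2, 554 without a filter, 127 with offsets for GC content and length, 4632 with total counts (96 higher, 4536 lower), and 147 to 687 with 1 pool left out. The members called (0) were 2 with total counts (Smad1 and Smad5) and 0 to 1 with 1 pool left out; other pathway genes called (0) were 14 with total counts and 0 to 1 with 1 pool left out, the 1 call coming without ISC_22mth replicate 1. Values that changed sign were, with total counts, Bmp2 -0.087, Bmpr1a -0.15, Bmpr2 -0.20, Smad4 -0.34, Smad5 -0.46, Id1 -0.46 and Id2 -0.15; with upper quartile scaling, Smad5 -0.011 and Id1 -0.012; with GC and length offsets, Smad6 0.081; and with 1 pool left out, Smad1 0.017 and 0.085 (range -0.25 to 0.085), Smad5 -0.015 (to 0.073), Id1 -0.12 and -0.30 (to 0.31), and Id2 -0.0083 (to 0.82). The cause was not tested. Same-numbered pools did not deviate together (correlation across genes -0.0059); with the replicate number as a block 624 genes and 0 members were called, with Id3 lowest (FDR = 0.0529).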
